A study of Mus musculus with 6 samples.

Results

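The intervals described here are stretches of accessible chromatin in mouse liver that lie at an end of a long non-coding RNA (lncRNA) gene and away from protein-coding genes. They were chosen by position alone: the centre of an interval had to fall within 1 kb of either end of a lncRNA gene span and between 5 and 100 kb from every protein-coding gene span. Of the 120905 intervals in the list, 1759 (1.45%) met this rule, at 1449 lncRNA genes. They are 6.40% of the 27464 intervals that lie 5 to 100 kb from coding spans.

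Liver chromatin was profiled by ATAC-seq, which cuts open DNA with a transposase that leaves adapters behind. All mice were wild-type males on a high-fat diet, and the 6 libraries were split evenly between the inbred strains C57BL/6J (3 libraries) and 129S1/SvImJ (3 libraries). The labels of all 6 also carry an antibody entry, Esrrg, that has no part in the ATAC-seq protocol, and that protocol calls the transposed material LMs without saying what this stands for. The data are 1 combined list of positions with no strain, library, score or read count, so no strain could be compared with the other, no replicate spread could be given and the depth is unknown. Every value below is therefore a count or share of positions, with an exact Clopper-Pearson 95% interval (exact Poisson for a density) that covers counting error only, and no test was made.

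A lncRNA is a transcript that is processed much like a messenger RNA but holds no long reading frame. Some lncRNAs act in the nucleus, some serve mainly as the precursors from which small nucleolar RNAs or microRNAs are cut, and for most no role is known. Active promoters and enhancers, where transcription factors displace nucleosomes, are the places where a transposase cuts most readily, and enhancers are often transcribed as well. In hepatocytes, HNF1, C/EBP, forkhead factors and nuclear receptors are the best known proteins that bind such sites.

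Start windows of 6 lncRNA genes are shown because each was overlapped by an interval and together they span the range from CpG-rich to CpG-free starts. They were picked after their values were seen. Each sequence is 300 bases, from 250 bases before the annotated start into the first bases of the transcript, on the gene's own strand and 5′ to 3′, from RefSeq, build GRCm38.p6. Capitals mark matches, on either strand, to the motifs searched, which are spelled out further on. Positions of matches are those of their first base, counted with the start site as 0.
Snhg15 (chr11:6528711-6529010, minus strand): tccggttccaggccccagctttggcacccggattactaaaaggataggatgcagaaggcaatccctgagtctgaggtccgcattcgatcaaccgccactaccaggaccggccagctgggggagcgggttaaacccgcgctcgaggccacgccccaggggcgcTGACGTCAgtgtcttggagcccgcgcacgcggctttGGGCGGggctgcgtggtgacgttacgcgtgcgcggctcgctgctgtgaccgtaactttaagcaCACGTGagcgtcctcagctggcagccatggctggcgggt
E130102H24Rik (chr4:101356199-101356498, minus strand): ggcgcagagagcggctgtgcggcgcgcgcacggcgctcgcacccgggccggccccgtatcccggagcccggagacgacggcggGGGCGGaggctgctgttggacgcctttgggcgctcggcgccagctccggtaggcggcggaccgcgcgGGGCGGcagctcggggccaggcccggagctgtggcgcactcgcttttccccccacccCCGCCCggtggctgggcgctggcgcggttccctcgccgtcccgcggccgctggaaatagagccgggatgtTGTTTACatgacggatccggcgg
Mir22hg (chr11:75461289-75461588, plus strand): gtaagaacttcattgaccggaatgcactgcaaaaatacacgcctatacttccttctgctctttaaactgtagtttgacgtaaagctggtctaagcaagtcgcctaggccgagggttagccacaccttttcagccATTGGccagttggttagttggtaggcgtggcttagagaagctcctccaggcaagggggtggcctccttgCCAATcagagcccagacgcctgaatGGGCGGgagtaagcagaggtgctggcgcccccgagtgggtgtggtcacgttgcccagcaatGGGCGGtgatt
4833411C07Rik (chr8:10899672-10899971, plus strand): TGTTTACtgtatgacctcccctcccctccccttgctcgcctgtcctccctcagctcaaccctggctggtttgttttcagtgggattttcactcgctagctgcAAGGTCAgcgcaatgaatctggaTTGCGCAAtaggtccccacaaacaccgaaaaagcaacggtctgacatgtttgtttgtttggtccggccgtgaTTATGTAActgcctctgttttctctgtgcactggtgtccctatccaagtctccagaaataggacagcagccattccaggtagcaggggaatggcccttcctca
Gm30446 (chr1:190048474-190048773, plus strand): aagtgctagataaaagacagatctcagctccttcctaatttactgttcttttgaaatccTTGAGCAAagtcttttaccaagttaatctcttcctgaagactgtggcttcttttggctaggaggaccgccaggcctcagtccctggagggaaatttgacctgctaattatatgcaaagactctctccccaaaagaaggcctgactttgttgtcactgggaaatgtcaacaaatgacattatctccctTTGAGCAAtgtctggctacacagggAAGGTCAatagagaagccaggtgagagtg
Gm42225 (chr5:22589628-22589927, minus strand): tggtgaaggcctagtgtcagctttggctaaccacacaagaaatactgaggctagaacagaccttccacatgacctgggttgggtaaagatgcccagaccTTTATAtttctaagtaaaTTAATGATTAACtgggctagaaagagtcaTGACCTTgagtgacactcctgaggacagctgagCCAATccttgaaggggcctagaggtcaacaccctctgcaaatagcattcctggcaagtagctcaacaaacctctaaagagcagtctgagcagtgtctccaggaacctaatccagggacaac

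The first 3 windows are those of RNA hosts, genes whose introns or exons yield small RNAs. Snhg15, a small nucleolar RNA host, had a window with 64.7% G+C and 29 CpG dinucleotides. It held a cAMP response element (CRE) match at -88 and a GC box at -52, both inside its 202 bp interval, and an E-box at 11 that lay outside it. E130102H24Rik, whose span holds the microRNA gene Mir101a, had the richest window of the 6, with 76.7% G+C and 47 CpGs, and 3 GC boxes. Mir22hg, the host of miR-22, had 54.7% G+C and 12 CpGs, with CCAAT boxes at -116 and -47.

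The other 3 windows had lower CpG content. At 4833411C07Rik, whose nearest coding gene is Irs2, the insulin receptor substrate of liver, 8 CpGs stood in the window. A receptor half-site at -148, a C/EBP match at -125 and a D-box at -53 all lay inside its 235 bp interval. Gm30446, whose nearest coding gene is the hepatocyte regulator Prox1, held a C/EBP match at -4 and a half-site at 21 inside a 262 bp interval. Gm42225 had no CpG in 300 bases. Its HNF1 match at -133 reached only the edge of the 251 bp interval, while its half-site at -104 lay inside it.

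Interval centres gathered at the starts of these lncRNA genes, but not at their far ends. Of 3704 lncRNA starts that lie 5 to 100 kb from coding spans, 820 (22.1%, interval 20.8 to 23.5) had an interval centred within 1 kb. Of 3991 far ends in the same zone, 440 (11.0%, 10.1 to 12.04) had one. Within 100 bp the contrast was steeper, with 259 starts (6.99%) against 17 far ends (0.426%). Among the 1759 intervals, 906 were nearest to a start, 430 to a far end, and 423 to an end of a gene whose strand was not in the tables used here.

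At protein-coding genes the start share was higher and the far-end share was close to that of lncRNAs. There, 57.1% of 17492 starts and 12.05% of 17492 far ends had an interval within 1 kb. Counted by gene, 1512 of 6164 lncRNA genes with an end in the zone (24.5%, 23.5 to 25.6) had an interval within 1 kb of such an end, against 60.6% of 21887 protein-coding genes. The larger number of genes here, 1512 and not 1449, counts a gene for any interval near its end, while each of the 1759 intervals was assigned to its nearest end only. The zone was also taken at the gene end for the 1512 and at the interval centre for the 1449.

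**Figure D1:**
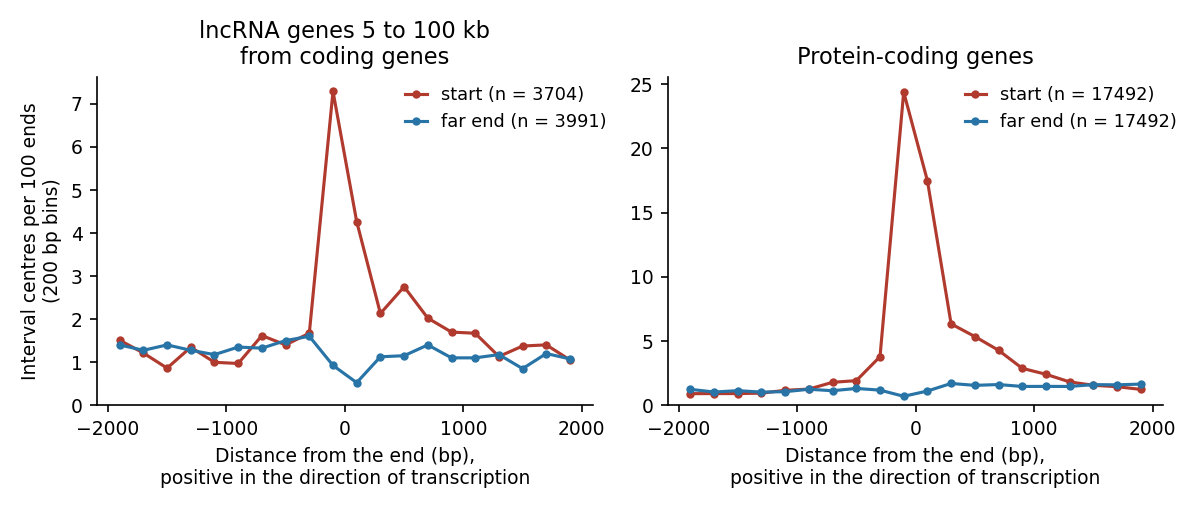
Interval centres per 100 gene ends in 200 bp bins, by distance from the start (red) or far end (blue), for lncRNA genes 5 to 100 kb from coding genes (left) and protein-coding genes (right, with a different vertical scale). The lncRNA start profile peaked just upstream of the start at 7.29 centres per 100 starts. The far-end profile had no such peak and dipped at the end itself.

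The profile by distance showed where around the start the centres lay. In the 200 bp just upstream of a lncRNA start there were 7.29 centres per 100 starts, 5.79 times the mean of 1.26 at 1 to 2 kb. The same bin at coding starts held 24.4 centres per 100 starts, 18.3 times the mean of 1.34 at 1 to 2 kb. The flanking mean over both sides was thus nearly equal for both kinds of gene, while the height at the start differed. The coding profile also stayed higher inside the gene, with 6.34 against 2.13 centres per 100 starts from 200 to 400 bp. At lncRNA far ends the highest bin held 1.60 centres per 100 ends, 1.34 times the flanking mean there. The 200 bp bins on either side of the far end itself held 0.927 and 0.526 centres per 100 ends, both below that flanking mean. The contrast close to the ends thus held a peak at starts and also a dip at far ends. Of the 924 intervals within 1 kb of any annotated lncRNA start, 469 (50.8%) were centred upstream and 364 (39.4%) lay within 150 bp of the start.

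**Figure D2:**
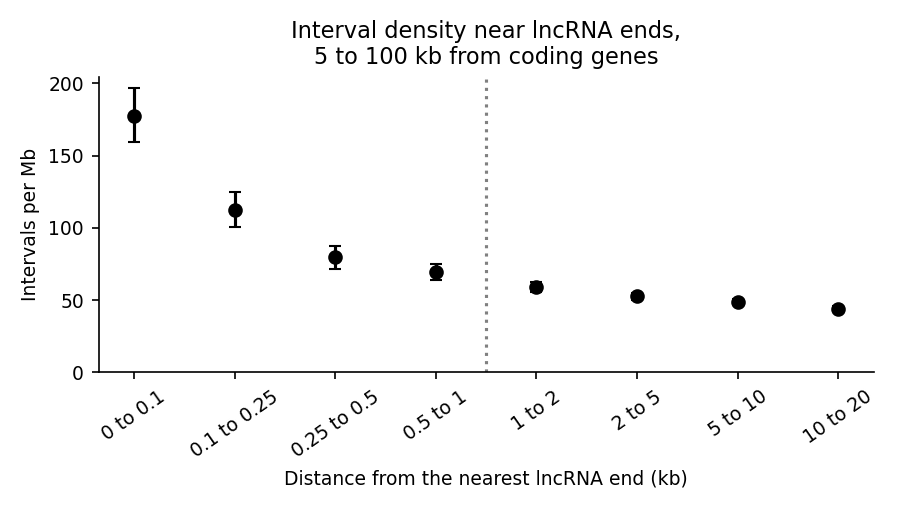
Intervals per Mb of sequence 5 to 100 kb from coding genes, by distance from the nearest lncRNA end in kb; points are densities, bars exact Poisson 95% intervals, and the dotted line marks the 1 kb limit. The density fell from 178 per Mb next to an end to 44.2 per Mb at 10 to 20 kb.

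Density fell smoothly with distance, with no step at the 1 kb limit. The first 100 bp around lncRNA ends held 178 intervals per Mb (160 to 197). From 0.5 to 1 kb the density was 69.3 per Mb, and from 1 to 2 kb it was 58.9. At 10 to 20 kb it was 44.2 per Mb, so the innermost 100 bp held 4.02 times, and the stretch from 0.5 to 1 kb 1.57 times, that density.

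Few genes had intervals at both ends, but few ends had one at all, 22.1% of starts and 11.0% of far ends in the zone. A low count at both is therefore no trait of its own. Whether an interval at the start went with one at the far end was not tested. Of 2662 lncRNA genes longer than 2 kb with both ends in the zone and a known strand, 82 had an interval at each end, 501 at the start alone, 205 at the far end alone and 1874 at neither. Of the 1449 genes, 1182 held 1 of the intervals, 228 held 2, 35 held 3 and 4 held 4. The median distance from the lncRNA end was 362 bp, with quartiles of 125.5 and 651, and 919 of the 1759 intervals (52.2%) were centred inside the gene span. The median distance from the nearest coding span was 25694 bp. The nearest to an end were those at Gm38623, 0 bp from its start, at Gm51620, Gm33724 and Gm39607, each 1 bp from the start, and at Gm36472, 2 bp from it.

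Starts of genes with a curated transcript had an interval more often than those of other genes. RefSeq separates curated transcripts from those predicted by its annotation pipeline. Of 927 starts of genes with a curated transcript, 268 (28.9%, 26.0 to 31.9) had an interval within 1 kb, against 552 of 2777 starts of genes with predicted transcripts alone (19.9%, 18.4 to 21.4). At far ends the shares were 11.5% and 10.8%. The number of transcripts per gene made little difference, with shares from 21.5% for 1 transcript to 23.8% for 2. Start shares were between 23.3% and 24.2% up to 50 kb from coding genes and 18.1% (15.8 to 20.6) from 50 to 100 kb, while far-end shares stayed between 10.5% and 11.5%.

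Gene length and arrangement were compared in the same way. By span, the share of genes with an interval at an end was highest at 29.9% for spans of 2 to 5 kb and lowest at 16.7% for spans over 50 kb. Head-to-head lncRNA starts, pairs that face away from each other, had an interval at 35 of 110 starts (31.8%, 23.3 to 41.4), against 21.8% (20.5 to 23.2) of the other 3594. The 110 starts form 55 pairs, and the same interval can count for both starts of a pair. The counting interval treats the starts as independent and may be too narrow, so it cannot tell whether the shares differ.

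The width of an interval is the only property the list gives besides its place. Many intervals shared 1 narrowest width, just over 0.2 kb, and none was narrower. Of the 1759 intervals, 1129 (64.2%, 61.9 to 66.4) were wider than this, against 53.8% of all intervals. Intervals at coding gene ends were wider than the narrowest width in 73.8% of cases. The 25705 intervals in the same zone but over 1 kb from any lncRNA end gave 54.2%, with 56.7% for those inside a lncRNA span and 53.7% for those outside. The lncRNA-end share thus lay between that of coding gene ends and that of its own surroundings.

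Among the 1759, the share wider than the narrowest width was 68.0% at starts, 62.6% at far ends and 57.7% where the strand was not known. It was 72.5% within 100 bp of an end and 61.8% from 100 to 500 bp. Widths of 250 bp or more were found in 221 (12.6%), against 9.35% of all intervals and 14.8% of those at coding gene ends. How width relates to signal cannot be read from the list, since no score or depth came with it.

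**Figure D3:**
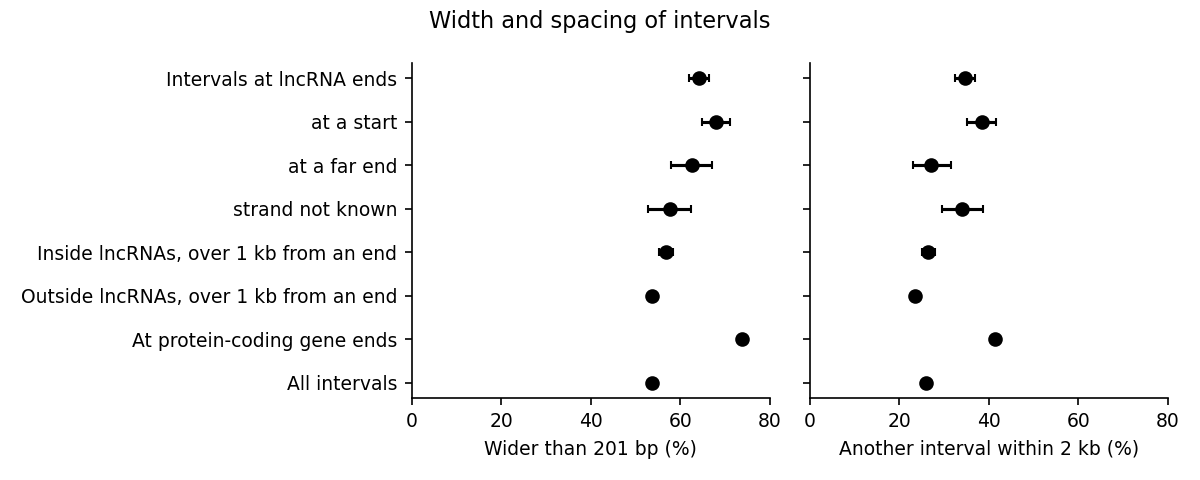
Percent of intervals wider than the narrowest width in the list (left) and with another interval centred within 2 kb (right), for the 1759 intervals at lncRNA ends, for those at a start, at a far end or where the strand is not known, and for comparison sets; points are shares, bars exact Clopper-Pearson 95% intervals. Both shares at lncRNA ends lay above those of intervals farther from lncRNA ends and below those at protein-coding gene ends.

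The widest of the 1759 was 391 bp, upstream of the start of 1110002J07Rik, a gene of no known role. The next were 383 bp at the far end of Gm29916 and 379 bp at the starts of both Gm33114 and Gm30081. The other members of the widest 8 were 372 bp at Gm15411, 367 bp at C230072F16Rik, 364 bp at Gm11454 and 363 bp at Gm32542. All but Gm29916 and C230072F16Rik among these 8 lay at a start, and the nearest coding genes, among them Hmgb1 and Zdhhc17, were from 10929 to 87820 bp away.

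Intervals at lncRNA ends had close neighbours more often than intervals in general. Another interval was centred within 2 kb of 609 of them (34.6%, 32.4 to 36.9), against 26% of all intervals. This share depended on how close intervals were treated: it was 22.1%, against 17.6% of all, once intervals within 500 bp were joined, and 21.0%, against 17.02% of all, without intervals of the narrowest width. The share was 41.4% at coding gene ends and 24.05% in the same zone away from lncRNA ends. It was 38.4% at starts and 27.2% at far ends. The 39 genes with 3 or more intervals held 121 of them, of which 105 had a neighbour within 2 kb and 48.8% were wider than the narrowest width. Where 3 intervals share the 2 ends of a gene, some must lie within 2 kb of each other. The count of 105 thus follows largely from how these genes were picked and says nothing more about spacing. The 4 genes with 4 intervals, Gm15201, Gm26697, Gm30020 and Gm35450, held 16, of which 13 were of the narrowest width.

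Other runs of 3 stood at genes of varied kinds. B330016D10Rik had intervals 995 and 169 bp upstream of its start and 927 bp inside it, with Spen, a transcriptional repressor, as the nearest coding gene. Gm11963 had intervals 449 bp upstream of its start, 26 bp inside it and 205 bp inside its far end, with Xbp1, a regulator of the unfolded protein response, nearest. Gm15889 had intervals 736 and 220 bp upstream of its start and 984 bp inside, and lay next to Herpud1, a component of endoplasmic reticulum quality control. Runs of 3 were also found at 4930447K03Rik, A930038B10Rik, Gm12107, Gm12354 and Gm13391.

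Starts with an interval were richer in G+C and CpG than those without. Of 3717 start windows of lncRNA genes in the zone, an interval overlapped 465 (12.5%), against 49.3% of coding start windows. These windows stand at 1 annotated start per gene, and 75.01% of them lay within 10 bp of the end of the gene span. A window was called CpG-rich where G+C was over 50% and the ratio of observed to expected CpG over 0.6. By this measure 77 of the 465 overlapped windows (16.6%, 13.3 to 20.3) and 65 of the 3252 others (2.00%) were CpG-rich, and 45.5% of all coding windows were.

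Read the other way, CpG-rich lncRNA starts had an interval far more often than the rest. An interval overlapped 77 of 142 CpG-rich windows (54.2%, 45.7 to 62.6) and 388 of 3575 others (10.9%, 9.85 to 11.9). Coding windows gave 79.4% and 24.03%. So lncRNA starts were overlapped less often than coding starts in both classes. By G+C alone, the share at lncRNA starts was 5.95% (4.02 to 8.44) at 40% or less, where coding starts stood lower at 3.61% (2.79 to 4.59). Those counting intervals overlapped, and in every other G+C class the coding share was the higher. Above 60% the share at lncRNA starts was 55.9%, where coding starts stood at 75.4%. Between 55 and 60% it was 19.7%, where coding starts stood at 59.0%. At overlapped lncRNA windows, the interval nearest to the start was wider than the narrowest width at 63 of 77 CpG-rich starts (81.8%) and 277 of 388 others (71.4%). That nearest interval was not always the one that overlapped the window. No counting interval was computed for these shares, and whether they differ was not tested.

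**Figure D4:**
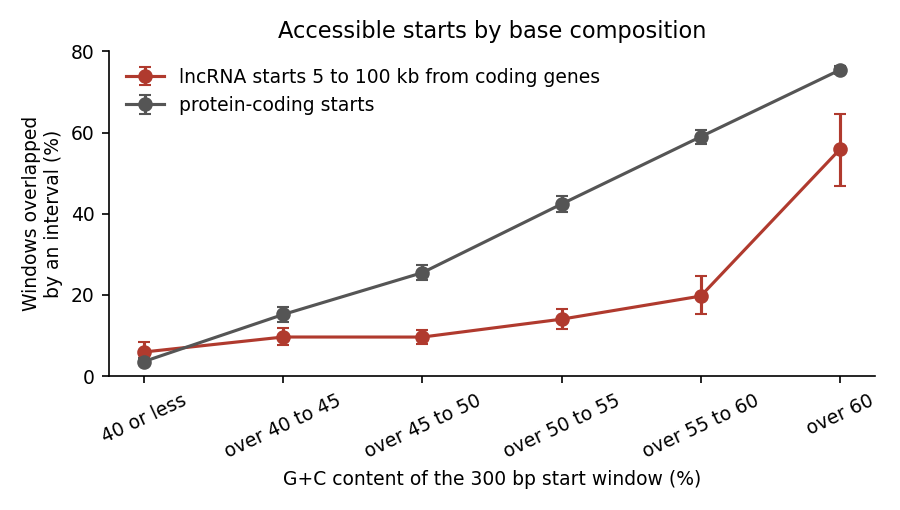
Percent of 300 bp start windows overlapped by an interval, by G+C content of the window, for lncRNA starts 5 to 100 kb from coding genes (red) and protein-coding starts (grey); bars are exact Clopper-Pearson 95% intervals. The lncRNA share rose most in the last class, from 19.7% to 55.9%, while the coding share rose through all classes to 75.4%.

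Fixed motifs were searched on both strands of the 300 base windows. Among motifs of liver factors, the E-box was CACGTG, which clock and MYC-family proteins bind. The D-box of the PAR bZIP proteins was TTATGTAA, and the half-site of nuclear receptors was AAGGTCA. Forkhead proteins were given a pair of motifs, with TGTTTAC as the main form and with TGTTTGC as a variant. For C/EBP it was TTGCNNAA, and HNF1 was searched by its palindrome. Among motifs of promoters in general, the GC box was GGGCGG, the motif of ETS proteins was CCGGAAG, and that of NF-Y was the CCAAT box. NRF1 was searched by its palindrome, the TATA box was TATAAA, the cAMP response element was TGACGTCA, and the AP-1 motif was TGANTCA. A match is a string of letters and not a shown binding site. Some motifs can share letters, as the CCAAT box and the C/EBP match may.

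The GC box and the E-box differed most in percentage points. The GC box was in 24.3% of the 465 overlapped windows and 8.06% of the 3252 others, against 35.9% of all 27025 lncRNA and coding windows. The E-box was in 11.2% and 5.38%, against 7.24% of all. The TATA box was lower in overlapped windows, in 13.1% (10.2 to 16.5) against 17.9% (16.6 to 19.3). NRF1 was in 2.37% and 0.431%, and ETS in 5.59% and 3.01%, with intervals that did not overlap. The receptor half-site, in 9.03% (6.59 to 12.01) and 6.00% (5.20 to 6.87), and the C/EBP match, in 16.1% (12.9 to 19.8) and 11.9% (10.8 to 13.1), had intervals that overlapped here. So did CCAAT, which was lower in overlapped windows, in 32.5% against 36.9%. HNF1 matched 3 overlapped windows and none of the others, where 0 of 3252 has an exact interval of up to 0.113%.

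Since GC boxes are common in CpG-rich sequence, the shares were also taken among windows that were not CpG-rich, 388 overlapped and 3187 not. Windows with high G+C and a CpG ratio of 0.6 or less remain in this class, so G+C content was not held equal. The GC box was then in 13.7% (10.4 to 17.5) and 7.37% (6.49 to 8.34). The half-site was in 10.3% (7.47 to 13.8) and 6.09% (5.28 to 6.97). The C/EBP match was in 17.5% (13.9 to 21.7) and 12.1% (11.0 to 13.3). For these 3 motifs, and for HNF1 with 3 windows against 0, the counting intervals did not overlap. For the E-box they did, at 8.51% (5.93 to 11.7) and 5.37% (4.61 to 6.21), as they did for all other motifs searched. Among CpG-rich windows, 77 overlapped and 65 not, the E-box was in 24.7% (15.6 to 35.8) and 6.15% (1.70 to 15.01). The GC box was in 77.9% (67.0 to 86.6) and 41.5% (29.4 to 54.4) of them. For no other motif were the counting intervals apart in that class.

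**Figure D5:**
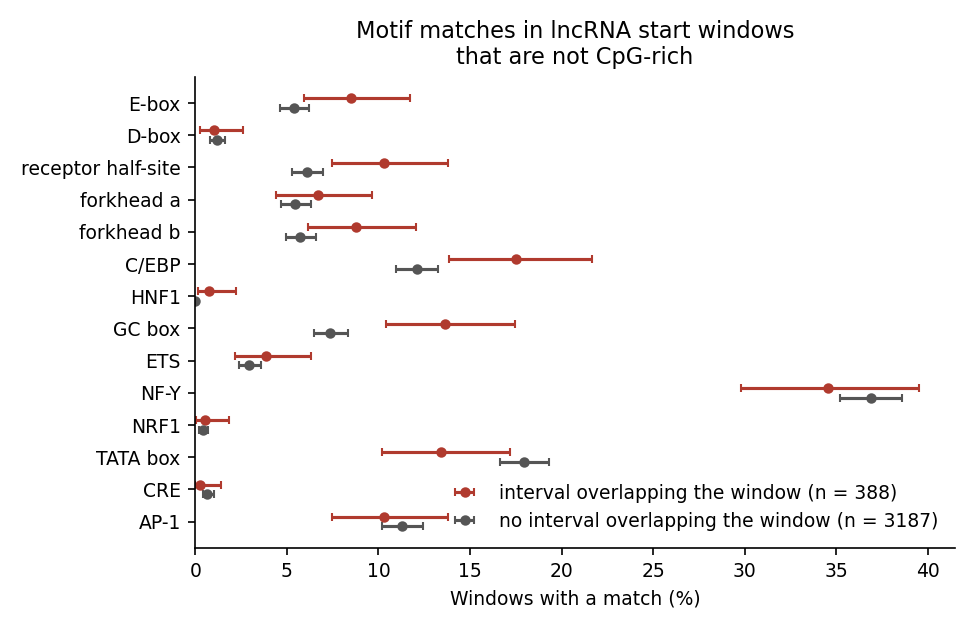
Percent of lncRNA start windows that are not CpG-rich with a match to each motif, where an interval overlapped the window (red, 388 windows) or not (grey, 3187 windows); forkhead a is TGTTTAC and forkhead b TGTTTGC, and bars are exact Clopper-Pearson 95% intervals. The red and grey bars were apart for the GC box, the receptor half-site, C/EBP and HNF1.

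Most of the genes have systematic names only. Of the 1759 intervals, 1400 (79.6%) stood at Gm-numbered genes, 264 at Rik clones and 20 at LOC-numbered genes. By gene, 24.4% of 4944 Gm genes, 26.0% of 865 Rik genes and 15.7% of 115 LOC genes in the zone had an interval at an end. Of genes named as hosts of small nucleolar RNAs, 5 of 6 had one: Snhg4, Snhg5, Snhg11, Snhg15 and Snhg20, but not Snhg17, whose nearest interval was 1613 bp away. Antisense and opposite-strand genes had one at 8 of 67 (11.9%). With groups this small the intervals are wide, from 35.9 to 99.6% for the small nucleolar RNA hosts.

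The 57 lncRNA names looked up matched 49 annotated lncRNA genes. Of these, 30 had an end in the zone and 14 held 1 or more of the intervals. Of all lncRNA genes with an end in the zone, 24.5% had one, but that share counts any interval near an end. The 14 held intervals whose own centres were in the zone and that were assigned to their nearest end. Malat1, an abundant nuclear RNA of splicing speckles, had an interval of 227 bp at 941 bp upstream of its start. Snhg5 had an interval of the narrowest width 381 bp upstream of its start, and Snhg11 had 257 bp at 124 bp beyond its far end. Pvt1, the neighbour of the Myc oncogene, had a 264 bp interval 29 bp outside its end. Dleu2 had intervals 87 bp upstream of its start and 769 bp inside. Trp53cor1, also known as lincRNA-p21, had one 86 bp inside the end that faces Cdkn1a and one 669 bp inside the other end.

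Oip5os1, known as Cyrano and for its pairing with miR-7, had the widest of these, 305 bp, 254 bp inside its start. Mirt1 had an interval of the narrowest width 108 bp upstream of its start, and Gm16551 had 205 bp at 139 bp inside its start. Gm12718 had a 263 bp interval 136 bp outside an end, and Platr4 had a 259 bp interval 667 bp inside an end. Several listed lncRNAs had an end in the zone and no interval there. The nearest interval was 6568 bp from an end of Neat1, the scaffold of paraspeckles, 39483 bp from H19, an imprinted fetal liver RNA, 22871 bp from Norad, and 1016 bp from Xist, just past the limit. At Meg3 it was 2049 bp and at Mir17hg 2105 bp away.

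MicroRNA hosts were a further kind of named member. A microRNA is cut from a longer transcript, and where that transcript is a lncRNA both can share a promoter. Of 53 lncRNA genes found to hold an annotated microRNA gene in their spans, 31 had an end in the zone. Of these, 13 (41.9%, 24.5 to 60.9) held 1 or more of the intervals, with 20 such microRNA genes in their spans. The share over all 6164 lncRNA genes with an end in the zone, 24.5%, lay at the lower limit of this interval, but was counted in another way. It takes in a gene for any interval near an end in the zone. The 13 hosts held intervals whose own centres were in the zone and that were assigned to their nearest end. Gm53058, a host with the same start as Gm32817, is thus not among the 13. Whether the shares differ was not tested. The 53 are not a full list of hosts. Mir124a-1hg and Mir1a-1hg, hosts by name with ends in the zone and none of the intervals, are not among them. The mature sequences of the microRNAs best known in liver or blood cells are shown, from RefSeq, build GRCm38.p6. The seed, bases 2 to 8, is in capitals.
miR-22-3p: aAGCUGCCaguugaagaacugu
miR-101a-3p: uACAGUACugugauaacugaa
miR-29b-3p: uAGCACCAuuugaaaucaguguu
miR-29c-3p: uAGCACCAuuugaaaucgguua
let-7b-5p: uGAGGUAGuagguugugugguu
let-7c-5p: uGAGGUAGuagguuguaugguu
miR-16-5p: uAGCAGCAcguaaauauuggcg
miR-193b-3p: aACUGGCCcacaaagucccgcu
miR-365-3p: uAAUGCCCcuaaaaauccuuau
miR-223-3p: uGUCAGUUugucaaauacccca

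Mature products of 1 host can share a seed, as miR-29b and miR-29c do with AGCACCA and let-7b and let-7c do with GAGGUAG. The host of the miR-29 pair, A330023F24Rik, had an interval of 207 bp 453 bp upstream of its start. Lncppara, formerly Mirlet7bhg, which holds the let-7 pair, had a 258 bp interval 996 bp upstream of its start. Its nearest coding gene is Ppara, the fatty acid sensor of liver, at 32133 bp. Mir22hg had 211 bp centred 103 bp upstream of its start and 226 bp at 947 bp inside.

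Other hosts had intervals closer to the start. E130102H24Rik, with miR-101a, had 292 bp centred 41 bp inside its start, the widest among the hosts. Gm32817, with miR-193b and miR-365, had intervals 155 bp upstream of its start and 241 bp inside. Dleu2, described above, holds the gene of miR-16-5p. Ftx, with miR-421 and miR-374b, had an interval 3 bp from its start. F630028O10Rik, with miR-223, a microRNA of myeloid cells, had an interval of 216 bp upstream of its start, and the nearest coding gene there was Vsig4, a Kupffer cell receptor that itself had no interval within 1 kb of an end.

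Mirc35hg, the host of the miR-183, miR-96 and miR-182 cluster known from sensory cells, had 3 intervals 146, 376 and 863 bp inside its start. Mir670hg had one 282 bp upstream of its start, 2900076A07Rik one 76 bp and Snhg20 one 118 bp upstream. At Gm49890, whose span holds miR-31, the interval was 204 bp inside the far end. Of the 13 hosts, all but Gm49890 had an interval at a start. Most genes did: of all 1098 lncRNA genes with an interval and a known strand, 784 had one at a start. Whether hosts differ from these was not tested.

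Whole liver holds several cell types, and the list does not separate them. As a check on the tissue, 7 of 8 hepatocyte marker genes had an interval within 1 kb of an end, all but Fgb, against 60.6% of all protein-coding genes. Of other markers, 4 of 10 of Kupffer cells and macrophages, 2 of 5 of sinusoidal endothelium, 3 of 5 of stellate cells, 2 of 4 of cholangiocytes and 1 of 6 of lymphocytes had one. With so few genes in each list, these counts are a weak check, and the lists of stellate cells and cholangiocytes lay near the share of all coding genes. How far each cell type contributed to the intervals at lncRNA ends was not tested.

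The coding genes next to the intervals were also counted, against 5 gene lists of liver function. The nearest coding gene was a hepatocyte gene for 3 intervals (0.171%), a liver transcription factor for 10 (0.569%), a clock gene for 2 (0.114%), a lipid gene for 5 (0.284%) and a glucose gene for 4 (0.227%). Intervals in the same zone away from lncRNA ends gave 0.175%, 0.506%, 0.124%, 0.296% and 0.307%. The shares were close to this background in all 5 lists. No enrichment of lncRNA-end intervals next to these genes can be read from them.

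Individual neighbours are given as positions. Gm36749 had a 317 bp interval just beyond its far end and 6225 bp from Pck1, the rate-limiting enzyme of gluconeogenesis. Gm31862 had a 335 bp interval 286 bp inside its far end and 8065 bp from Nr1d1, the clock repressor REV-ERBα. Gm35999 had 203 bp at 21531 bp from Alb, the albumin gene, and Gm36228 had 239 bp at 31695 bp from Arg1, the arginase of the urea cycle. Those 4 pairs range from close neighbours to sites over 30 kb away.

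Next to liver transcription factors, Gm35724 and Gm35665 had intervals of the narrowest width 6058 and 13048 bp from Cebpa, a driver of hepatocyte identity. A530013C23Rik had another 7663 bp from Cebpb, its stress-induced relative. Gm16551 lay 13345 bp from Onecut1, known as HNF6. Next to lipid genes, A330041J22Rik had an interval 5510 bp from Me1, malic enzyme, Gm36301 one 14650 bp from Pparg, the adipogenic receptor, and Gm26608 one 15736 bp from Insig1, a brake on sterol synthesis. Nfil3, a clock-linked repressor, had Gm33519 at 35278 bp.

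Irs2 had 3 intervals as its distant neighbours. They stood at both ends of 3930402G23Rik, 56127 and 59992 bp away, and at the start of 4833411C07Rik, 84840 bp away. Further ones fell outside the naming rule and were picked after their values were seen. Gm46176 had an interval 40884 bp from Esrrg, the nuclear receptor in the antibody entry, and Gm30446 and Gm39736 had intervals 69314 and 73016 bp from Prox1. In all, 1258 coding genes were nearest to 1 or more of the intervals and 921 of them to 1. Ywhaz, a 14-3-3 protein, had the most, with 8 at 6 lncRNA genes, and Arhgap5 had 7 at 3.

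A small number coincided with other non-coding genes. Of the 1759, 6 (0.341%) were centred in a tRNA gene, against 59 of all intervals (0.0488%) and 28 (0.109%) of those in the same zone away from lncRNA ends. Examples were n-TLtaa3 at B230208H11Rik and n-TAagc16 at Gm32525. Centres in a microRNA gene numbered 0, and 86 intervals (4.89%) lay within 1 kb of ends of 2 or more lncRNA genes.

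The limits of the rule left out more lncRNA ends than they kept. Of 5349 intervals within 1 kb of a lncRNA end, 2044 lay inside a coding span, 1066 under 5 kb outside one and 480 over 100 kb from any. Just inside the 1 kb limit stood intervals at Mannr, Gm41286 and Gm36897, at 996, 997 and 999 bp, and just outside it those at Gm31901, Gm35369 and Gm39023, at 1001, 1004 and 1004 bp. At the 5 kb limit the nearest kept were 5017, 5041 and 5085 bp from Ypel4, Zbtb21 and Serpina16. The nearest left out were 4987, 4991 and 4999 bp from Txnip, Reep3 and Gnl1, the first of these being the interval 43 bp from an end of Gm15441. At 100 kb the nearest kept were 99171, 99550 and 99757 bp from Rims1, Clint1 and Zfp36l2, and the nearest left out were 100339, 100478 and 100665 bp from Zfp365, Unc5b and Adgb.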

How the data were processed

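ATAC-seq intervals of 6 liver libraries, 3 each from C57BL/6J and 129S1/SvImJ, were deposited by the authors as 1 list of positions (chromosome, start and end). The submitters' processing notes name fastp, Bowtie2, HOMER and mm10, without versions or order; for the peak threshold, any shift of read ends and the way libraries were combined, the sources used here give nothing. Depth per library is unknown. The planned strain comparison could not be run, since no column names a strain. The labels do not say whether replicates are separate animals.

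Positions were set against gene spans of RefSeq, GRCm38.p6, the mm10 build, with 49943 genes on 21 chromosomes, of which 12727 were lncRNA and 21887 protein-coding. Starts and strands came from RefSeq start windows, held for 9533 lncRNA and 17492 coding genes. Of the 1449 lncRNA genes with an interval, 1098 had a window. Zone membership used the centre for intervals, the end position for gene ends and lncRNA genes, and the annotated start for start windows. Computations used Python 3.11.15, numpy 2.4.6, pandas 2.3.3, scipy 1.17.1 and matplotlib 3.10.9, and the rule was tested on simulated data.

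The intervals and gene lists were chosen with earlier results of these data known. Named genes were those with 3 or more intervals (at most 12), the 8 widest, the 5 nearest to an end, listed lncRNAs, up to 4 coding neighbours per list by distance, and 3 on either side of each limit. MicroRNA hosts, tRNA genes and printed sequences were picked after their values were seen. Interval sequences were not used here. A coding neighbour that the rule names is not reported here. Alternatives changed the end window, coding distance, overlap, joining and gene filters.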

Additional observations from a re-analysis of the deposited data

How the results depend on the processing

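The number of intervals kept by the rule, 1759, was 1098 with an end window of 500 bp and 2788 with 2 kb. It was 1129 without intervals of the narrowest width and 350 without Gm and LOC numbered lncRNAs. The share of lncRNA genes with an interval, 24.5%, was 16.6% with 500 bp and 35.4% with 2 kb. It was 23.1% with no upper limit on coding distance, 26.1% where overlap with the end window counted, 17.2% without those of the narrowest width and 26.2% without Gm and LOC genes. The share wider than the narrowest width, 64.2%, was 70.8% when intervals within 500 bp were joined; without intervals of that width it has no value, since all others are wider by construction. The share centred inside the gene span, 52.2%, was 49.4% without Gm and LOC genes. The share with a neighbour within 2 kb, 34.6%, was 22.1% after joining, 21.0% without intervals of the narrowest width and 30.9% without Gm and LOC genes. The CpG-rich share of start windows was 10.8% where an interval was centred within 1 kb of the start and 16.6% where it overlapped the window. Joining, wider windows and dropping intervals change these by their own construction; for the others the cause was not tested. The other 39 values moved by less than their counting error or, for counts, by less than 1.5 times. No paired analysis was possible because the list carries no libraries, and leaving out a library could not be done for the same reason. Positions carry no depth or signal, so a missing interval does not show closed chromatin, and intervals cover counting error only.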
